A study of Homo sapiens with 6 samples.

Results

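Along the genome of Jurkat nuclei, some open regions that every library held lay so close together that they formed dense clusters, which are described here. Peaks of all 6 libraries were merged wherever they overlapped by at least 1 bp, which gave 69562 regions. Of these, 23303 lay on chromosomes 1 to 22 or X and were held by all 6 libraries, and they are called constant regions. Constant regions no more than 12500 bp apart were stitched, and a stitched stretch of 5 or more regions was called a cluster. The rule found 498 regions in 83 clusters, 498 of the 69562 regions in all, and left 22805 other constant regions. Presence in all 6 libraries and short distances chose the members, so neither is a finding.

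ATAC-seq was run on the nuclei of Jurkat cells, a human line grown from a T cell leukaemia. The assay uses a transposase that cuts DNA and adds adapters where chromatin is accessible. In the simulated microgravity group (SMG, 3 libraries), nuclei turned in a random positioning machine at 30 degrees per s for 30 min. The normal gravity group (NG, 3 libraries) came from the same line, kept at normal gravity. Each library started from 50000 cells, and in both groups the nuclei had been freed with detergents before the transposase reached them. The labels give the turning step for nuclei and not for intact cells, so the data do not test a response of living T cells. They do not say whether the turning ran during the transposition, or whether each library had a culture of its own. Each p given here therefore measures the spread among these libraries, and that spread may be technical.

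Transcription factors open short stretches of DNA at promoters, where transcription starts, and at enhancers, which act on genes at a distance. Enhancers can lie in close groups, often called super-enhancers or stretch enhancers, and in T cells and their leukaemias such groups are known at genes that set cell identity. Dense open chromatin is also known at gene-rich loci and at tandem arrays of histone, ribosomal RNA and small nuclear RNA genes. ATAC-seq does not tell these apart, and no histone mark was measured here.

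The clusters were therefore sorted only by their position against annotated genes. Of the 83, 44 clusters with 248 regions overlapped a protein-coding gene and had most regions away from gene ends. They are called clusters within genes below, although their regions need not all lie inside a gene. Another 25 clusters with 139 regions lay at gene ends, meaning that regions within 1 kb of an annotated end of a protein-coding gene were at least as many as the others. The last 14 clusters, with 111 regions, overlapped no protein-coding gene. These classes were drawn after the values were seen. The working name of the set, stretches like enhancer clusters, does not describe all of it. Of the 4 clusters with most regions, 1 overlapped ribosomal RNA genes and the others lay in or near centromeres. In 25 clusters at least as many regions lay at gene ends as away from them.

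The promoter sequences below show the strongest annotated start of 6 clusters. Each is the RefSeq sequence (GRCh38.p14) from 250 bases before to 50 bases after a gene start and lies inside a member region. NPRL2 codes for a subunit of the GATOR1 complex, which restrains mTORC1, and DDIT4 for a stress-induced inhibitor of mTORC1. HDAC4 codes for a class IIa histone deacetylase, H3C2 for a replication-dependent histone H3, and DBP for a transcription factor of the circadian clock output. LOC105375059 is a long noncoding RNA annotated within the CCND3 locus, which codes for cyclin D3. Capitals mark matches on either strand. The RUNX motifs searched were TGTGGT and TGCGGT, and the ETS motif was CCGGAAGT. The E-boxes searched were CAGATG and CAGCTG. The other motifs were GGGCGG for SP/KLF factors, CCAAT for the factor NF-Y, TGACGTCA for the cyclic AMP response element (CRE), TATAAA for the TATA box and AGATAA for GATA factors. No motif of the list contains another, and matches that touch or overlap share a run of capitals.
LOC105375059 (chr6:42010463-42010762, plus strand): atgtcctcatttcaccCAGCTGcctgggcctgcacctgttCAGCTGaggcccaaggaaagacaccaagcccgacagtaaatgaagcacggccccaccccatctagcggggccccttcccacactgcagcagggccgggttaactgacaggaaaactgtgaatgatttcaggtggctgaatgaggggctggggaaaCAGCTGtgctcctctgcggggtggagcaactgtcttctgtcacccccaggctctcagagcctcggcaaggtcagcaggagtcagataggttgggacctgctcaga
NPRL2 (chr3:50350726-50351025, minus strand): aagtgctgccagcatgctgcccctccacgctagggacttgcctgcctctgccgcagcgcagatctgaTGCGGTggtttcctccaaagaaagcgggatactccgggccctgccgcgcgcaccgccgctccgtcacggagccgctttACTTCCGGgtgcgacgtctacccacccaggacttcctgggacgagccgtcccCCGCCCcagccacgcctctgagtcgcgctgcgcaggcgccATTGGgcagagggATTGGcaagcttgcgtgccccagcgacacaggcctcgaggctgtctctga
HDAC4 (chr2:239298481-239298780, minus strand): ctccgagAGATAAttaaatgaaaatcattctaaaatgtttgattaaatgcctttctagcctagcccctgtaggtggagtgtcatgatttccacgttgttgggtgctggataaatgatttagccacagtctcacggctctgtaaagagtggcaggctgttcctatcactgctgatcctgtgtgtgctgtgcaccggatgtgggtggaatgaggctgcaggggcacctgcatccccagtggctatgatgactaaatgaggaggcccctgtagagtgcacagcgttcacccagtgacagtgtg
DBP (chr19:48637330-48637629, minus strand): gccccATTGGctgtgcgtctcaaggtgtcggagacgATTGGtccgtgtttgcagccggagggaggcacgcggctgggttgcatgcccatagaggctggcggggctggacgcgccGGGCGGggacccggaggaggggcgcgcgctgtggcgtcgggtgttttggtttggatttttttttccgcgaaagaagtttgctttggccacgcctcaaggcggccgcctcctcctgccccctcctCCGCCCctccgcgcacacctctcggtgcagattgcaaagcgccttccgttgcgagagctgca
DDIT4 (chr10:72273674-72273973, plus strand): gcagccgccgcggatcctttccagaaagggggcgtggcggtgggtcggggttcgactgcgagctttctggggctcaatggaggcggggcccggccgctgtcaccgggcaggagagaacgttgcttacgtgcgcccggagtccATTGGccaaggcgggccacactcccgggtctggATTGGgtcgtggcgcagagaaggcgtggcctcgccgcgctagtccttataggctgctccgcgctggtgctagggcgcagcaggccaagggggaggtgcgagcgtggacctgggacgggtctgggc
H3C2 (chr6:26032050-26032349, minus strand): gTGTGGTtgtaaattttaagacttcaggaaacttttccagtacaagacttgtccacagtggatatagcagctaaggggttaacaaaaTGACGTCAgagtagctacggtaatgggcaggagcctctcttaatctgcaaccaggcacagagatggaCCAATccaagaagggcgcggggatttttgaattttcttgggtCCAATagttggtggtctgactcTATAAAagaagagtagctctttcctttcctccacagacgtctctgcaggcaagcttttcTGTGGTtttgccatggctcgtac

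In these windows the LOC105375059 start held 3 E-boxes and no other searched motif, and its region was among the strongest of the set. The NPRL2 start held an ETS and a RUNX match beside SP/KLF and NF-Y matches. The H3C2 start held TATA, CRE, NF-Y and RUNX matches. The HDAC4 start, which lies inside the annotated span of the gene, held 1 GATA match. A match is a description of the letters and not a site of binding.

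Among 135 RefSeq promoters that lay inside member regions, 58.5% held GGGCGG, against 72.7% of 9411 promoters inside other constant regions and 44.9% of all 34789 promoters. CCAAT was found in 45.2% of member promoters, against 39.6% in other constant regions and 34.6% of all. TGACGTCA was found in 7.41%, against 3.77% and 1.84%, and TATAAA in 13.3%, against 3.74% and 11.6%. Of the 135, 16 were histone gene promoters, and 11 of those held TATAAA, 13 held CCAAT and 5 held TGACGTCA. Among the other 119 member promoters TATAAA was found in 5.88% and TGACGTCA in 4.20%, so the histone genes carried much of both shares. TGTGGT was found in 17% of member promoters, against 9.86% in other constant regions and 13.1% of all. TGCGGT was found in 13.3%, against 11.8% and 7.28%, and CCGGAAGT in 8.15%, against 10.8% and 4.12%. The E-boxes CAGATG and CAGCTG were found in 11.1% and 14.8% of member promoters, against 8.38% and 16.8% in other constant regions and 14.7% and 17.9% of all. AGATAA was found in 7.41%, against 4.13% and 10.4%. Member promoters had a median GC content of 61%, against 65.3% in other constant regions, and the part of base composition in these shares was not tested.

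MicroRNA genes lay inside the span of some clusters, and the 4 mature sequences below are shown for their place in blood cells and for a shared seed. They are from RefSeq (GRCh38.p14), with the seed, bases 2 to 8, in capitals.
hsa-miR-142-3p (chr17:58331245-58331267, minus strand): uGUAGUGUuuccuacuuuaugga
hsa-miR-142-5p (chr17:58331283-58331303, minus strand): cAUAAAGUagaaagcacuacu
hsa-miR-130b-3p (chr22:21653354-21653375, plus strand): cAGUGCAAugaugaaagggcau
hsa-miR-301b-3p (chr22:21653025-21653047, plus strand): cAGUGCAAugauauugucaaagc

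MicroRNA-142, known for high levels throughout blood cells, lay in the cluster of SUPT4H1, TSPOAP1 and RNF43. Its arms were 695 and 733 bp from the nearest member, chr17:58328077-58330550. That region, chosen after its values were seen, ranked at 91.6, 89.4 and 91.3 in SMG 1 to 3, against 86.4, 87.3 and 83.9 in NG 1 to 3. A rank is the percentile of the region among the 23303 constant regions of the same library, ordered by the −log10 q-value that the authors' peak caller gave its strongest peak. It runs from 0 for the weakest to 100 for the strongest. All 3 SMG ranks of this region lay above all 3 NG ranks, as they did in 5.37% of all constant regions and 3.82% of members. MicroRNA-130b and microRNA-301b share the seed AGUGCAA and lay together in the cluster of CCDC116, SDF2L1 and YDJC, 662 and 333 bp from a member.

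A single constant region was the usual case. Of 18713 stretches, 15330 held 1 region, 2574 held 2, 577 held 3, 149 held 4 and 83 held 5 or more. Within the clusters, 46 held 5 regions and the largest held 16. Gaps inside clusters had a median of 5636 bp (114 to 12490 bp), and the gaps at their edges began at 12535 bp. Over all constant regions the median gap was 44694.5 bp. A cluster spanned 33.7 kb at the median (12.6 to 90.1 kb), and its open regions covered 14.7% of that span at the median (9.26 to 45.7%). Together the clusters spanned 2906 kb and overlapped 183 protein-coding genes. Just inside the size threshold, in clusters of exactly 5 regions, 35.7% of regions lay at a gene end and the median rank was 50.4. Just outside it, in stretches of 4, these were 29.7% and 45.9.

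Gene ends took a smaller share of members than of other constant regions. Of the 498 members, 142 lay within 1 kb of an end of a protein-coding gene, a share of 28.5% (95% Wilson interval 24.7 to 32.6%), against 35.7% of other constant regions. Another 34.1% lay inside a gene away from its ends, against 34.3%, and 37.3% lay outside protein-coding genes, against 30.0%. The gene-end share was 37.3% in single regions, 33.4% in stretches of 2, 30.3% in stretches of 3 and 29.7% in stretches of 4. Members are not replicates of each other, and the interval covers counting error only. Without the 8 clusters that had no protein-coding gene within 100 kb, an alternative added after seeing the data, the gene-end share was 33.5%.

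**Figure D1:**
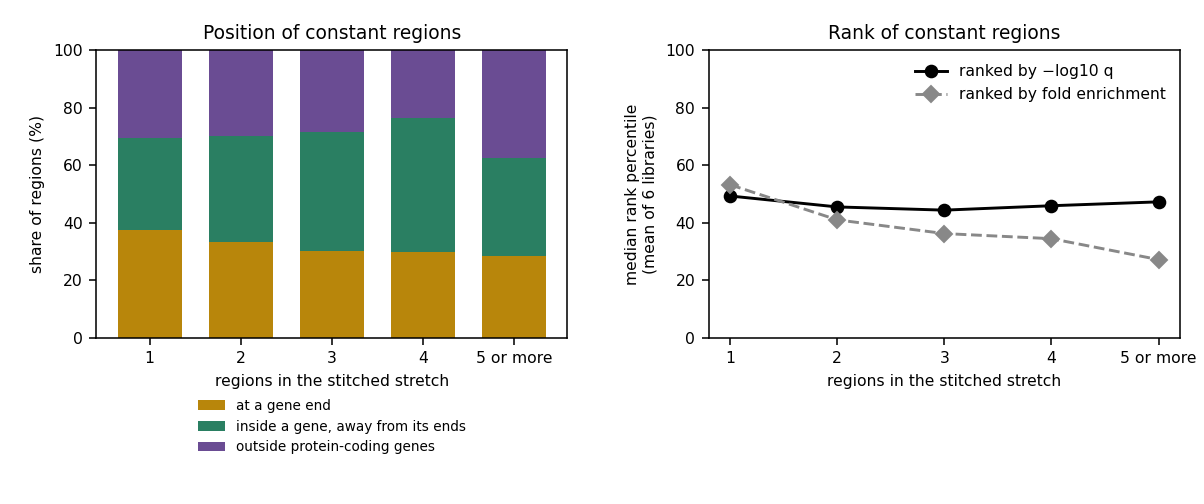
Left, share of constant regions (percent) at a gene end, inside a gene and outside protein-coding genes, by the number of regions in the stitched stretch. Right, median rank percentile of the same regions (mean of 6 libraries) by −log10 q and by fold enrichment. The gene-end share was 37.3% in single regions and 28.5% in stretches of 5 or more, and the rank by fold was 53.2 and 27.2.

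Chromosome 1 had 11 clusters and chromosome 17 had 8, while chromosomes 8 and 20 had none. Members made up 6.03% of the constant regions of chromosome 21, 4.65% of those of chromosome 17 and 4.10% of those of chromosome 18. Of the 19 members on chromosome 21, 12 lay in a single cluster of ribosomal RNA genes. Of the 44 on chromosome 17, 8 and 5 lay in a pair of clusters of small nuclear RNA genes. All 3 clusters of chromosome 18 lay in LDLRAD4, which codes for a negative regulator of TGF-β signalling.

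Clusters overlapped 183 of all 19974 protein-coding genes (0.916%). Of 30 genes for T cell transcription factors 2 overlapped a cluster (6.67%), RUNX1 and LEF1, and of 20 leukaemia regulators 1 did (5%), CCND3, both shares above that of all genes. None of 30 T cell identity genes and none of 30 signal regulators of T cells did. Counts this small were not tested. Of 25 immediate early and AP-1 genes 2 overlapped a cluster (8%), FOSB and NR4A1. Of 22 ribosomal protein genes 2 did (9.09%), RPL18 and RPS27. ENO2 was the single one of 20 glycolysis genes (5%) and CD68 the single one of 15 myeloid markers (6.67%). These shares were also above that of all genes, so a higher share was not particular to the T cell lists. None of 22 adhesion and migration genes, 22 chromatin regulators, 15 B cell markers, 12 erythroid markers and 12 neuronal genes overlapped a cluster. Over the whole genome, all 8 T cell markers checked, among them CD3D, CD3E, LCK and ZAP70, had a constant region at a gene end. None of 5 B cell, 5 myeloid and 4 erythroid markers had one, and of 4 neuronal markers SNAP25 did. The share of all protein-coding genes with such a region is not given here, so these marker counts have no background beside them.

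RUNX1, a transcription factor of blood stem cells and T cells and a frequent target of leukaemia lesions, had 7 members over 52.5 kb (chr21:34999271-35051794). None of the 7 lay at an annotated gene end. The strongest, chr21:35026679-35027504, ranked at 90.5, 97.1 and 94.0 in SMG 1 to 3 and at 88, 96.5 and 89.5 in NG 1 to 3. The other 6 averaged between 23.6 and 49.4. One region thus stood far above its neighbours in each library of both groups, and the groups overlapped at it.

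The cluster of CCND3 and TAF8 held 6 members (chr6:42009890-42051055). CCND3 codes for cyclin D3, which drives proliferation of T cell precursors, and TAF8 for a subunit of the general factor TFIID. Its first member, chr6:42009890-42010868, holds the LOC105375059 start printed above and lies inside the span of CCND3. It ranked at 98.8, 96.2 and 96.7 in SMG 1 to 3 and at 99.2, 97 and 98.2 in NG 1 to 3. The next, chr6:42022194-42023017, averaged 91.6, while the member between CCND3 and TAF8, within 1 kb of an end of both, averaged 58.0. That member ranged from 22.9 in SMG 1 to 77.6 in NG 2, and the groups overlapped at it.

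The cluster of HADH and LEF1 (chr4:108017790-108054593) covered the 3′ part of LEF1, which codes for a factor that acts with β-catenin in early T cells, and the end of HADH, which codes for an enzyme of fatty acid oxidation. Its 6 members averaged between 23.7 and 79.4. The cluster mean was 60.0, 67.7 and 52.8 in SMG 1 to 3 and 60.8, 52.4 and 56.0 in NG 1 to 3, and the groups overlapped.

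A cluster without protein-coding genes, chr1:199010250-199042026, lay in the long noncoding RNA genes LINC01221 and LINC01222, with PTPRC as the nearest protein-coding gene at 253 kb. PTPRC codes for CD45, the phosphatase of all white blood cells. Its 5 members averaged between 36.3 and 89.8. This cluster and those of IRF1, CROCC and CXorf49 were chosen after their values were seen.

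Other clusters lay across regulators of transcription and of stress responses. NR4A1, a nuclear receptor induced early after T cell receptor signalling, shared 7 members with TAMALIN, a scaffold protein. DDIT4 had 7 members over 50.4 kb, averaging from 9.84 to 75.8, and the one at its start averaged 74.8. HDAC4 had 8 members, the most of any cluster inside a protein-coding gene, and none lay at an end of the annotated gene. Its strongest, chr2:239298194-239298961, holds the start printed above and ranked between 85.4 and 89.6 in all 6 libraries, whereas the other 7 averaged between 7.04 and 50.7. IRF1, a transcription factor of the interferon response, lay in a cluster of 6 whose strongest member, chr5:132466141-132467142, averaged 92.5 and lay away from gene ends.

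The gene-end clusters held several regions near annotated ends of genes, which can be the start or the other end. The cluster of RASSF1, HYAL2 and TMEM115 overlapped 8 protein-coding genes, with 5 of its 7 members at gene ends, and its strongest member held the NPRL2 start at an average rank of 93.5. The cluster of PNP, PIP4P1 and APEX1 had a mean rank of 71.1. PNP and APEX1 code for enzymes of purine salvage and base excision repair. Its member at PIP4P1, chr14:20461276-20462121, averaged 99.7 and was near the top of every library. The cluster of CCDC142, MOGS and INO80B had all 5 members at gene ends and a mean rank of 70.5.

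Histone gene clusters held members on chromosomes 1 and 6. The cluster with H3C2 (chr6:26020255-26056649) overlapped 8 histone genes, and all 7 of its members lay at gene ends. Its mean rank was 47.0, 46.7 and 63.1 in SMG 1 to 3 and 47.8, 46.9 and 46.1 in NG 1 to 3, so SMG 3 stood above the other 5 libraries. The difference between groups was 5.34 points, and −0.226 without SMG 3. Another cluster on chromosome 6, with 9 histone genes, had a mean rank of 56.0, and the one on chromosome 1, with 6, had a mean rank of 70.4. Histone genes of a family are near-identical in their coding parts, and no source used here says how reads with several possible places were treated.

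**Figure D2:**
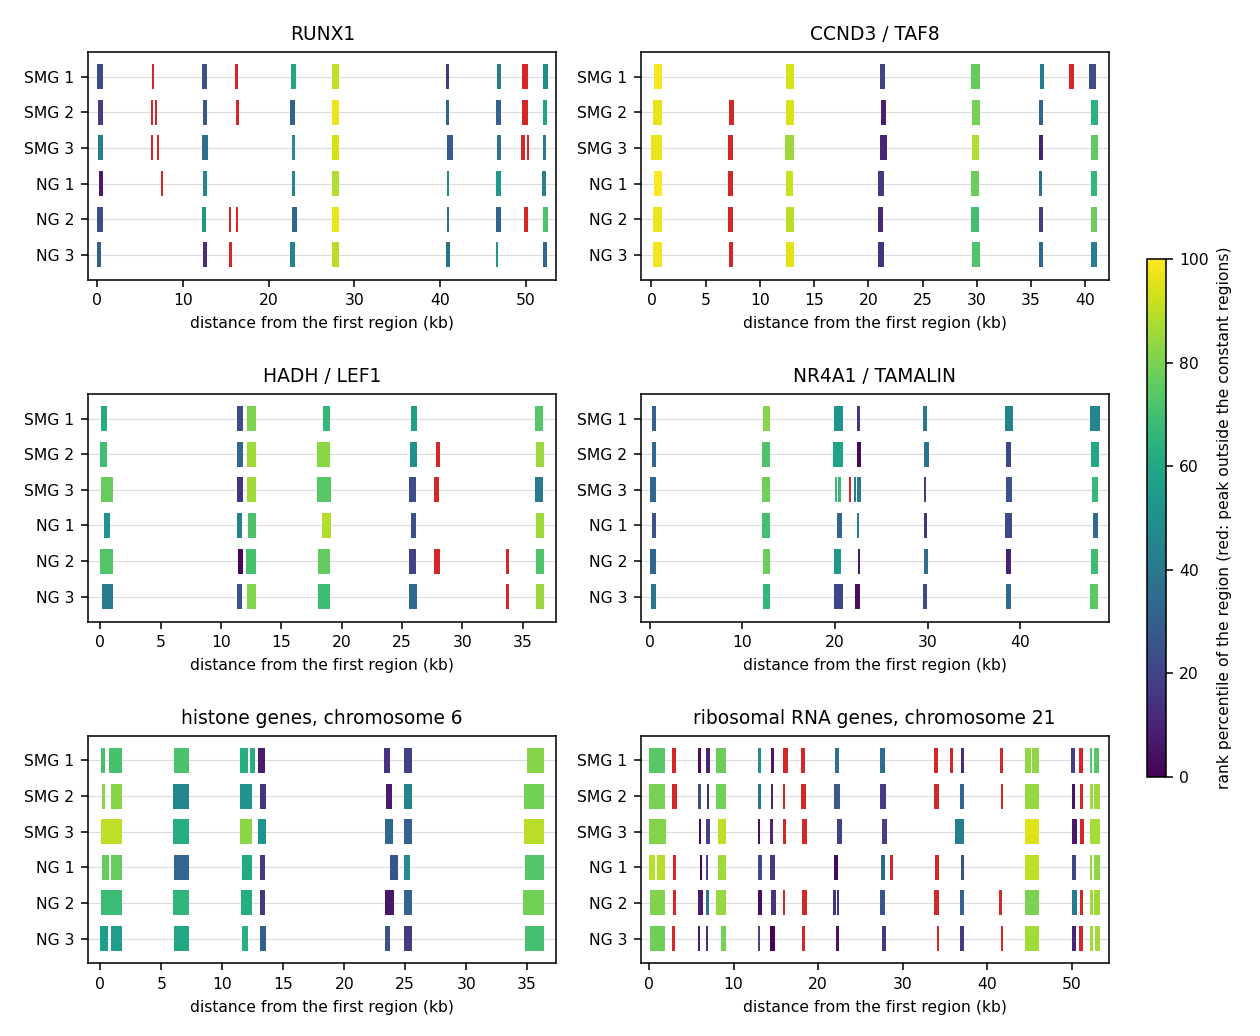
Peaks inside 6 clusters, 1 row per library, SMG 1 to 3 above NG 1 to 3, along the distance in kb from the first region. Colour gives the rank percentile of the constant region in that library, and red marks peaks outside the constant regions. In RUNX1 1 region, and in CCND3 / TAF8 2 regions, rank above 84 in every library.

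Clusters without protein-coding genes held the 4 largest by number of regions. By q-value their median rank was the highest of the classes, while by fold enrichment, described further on, it was the lowest. Their median span was 33.5 kb, against 35.6 kb for gene-end clusters and 32.5 kb for clusters within genes. The one with most regions, chr1:143184560-143264895, held 16 members over 80.3 kb with a mean rank of 75.2, and its nearest protein-coding gene, H3-7, was 637 kb away. Its cluster mean was 78.9, 76.2 and 66.6 in SMG 1 to 3 and 80.2, 75.7 and 73.8 in NG 1 to 3. Next came chr5:49576723-49666839 with 15 members, 729 kb from EMB, whose strongest member averaged 99.9. A cluster at chr16:46387598-46401647 had 5 members, a mean rank of 74.5 and the highest covered share, 45.7%. Others were chr16:34572483-34595805 with 9 members and chr1:124737067-124778435 with 7. These intervals lie in or near centromeres, where the assembly carries long near-identical repeats, and the part of repeats in their ranks was not tested. In all, 8 clusters with 74 members had no protein-coding gene within 100 kb.

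Ribosomal RNA genes made up the cluster at chr21:8392593-8445994, with 12 members. Its 4 strongest members averaged 80.6, 82.7, 83.4 and 86.4 and lay in the parts that code for the small-subunit and the large-subunit ribosomal RNA of 2 repeat copies, RNA45SN3 and RNA45SN1. The other 8 averaged between 7.52 and 26.7. Median fold enrichment in this cluster was 2.52, 2.52 and 2.45 in SMG 1 to 3 and 2.63, 2.64 and 2.43 in NG 1 to 3. Over all members it was 5.45 to 5.85 in SMG libraries and 5.49 to 5.79 in NG libraries. Reads from the 2 copies cannot be told apart where their sequences are the same.

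Small nuclear RNA genes and T cell receptor segments formed others. The U2 small nuclear RNA array on chromosome 17 held a cluster of 8 members at a mean rank of 64.1 and another of 5 at 67.0. In the CROCC cluster the member chr1:16895579-16896943, at the small nuclear RNA gene RNU1-2, averaged 99. Transfer RNA genes overlapped 4 clusters. At the T cell receptor gamma locus, 7 members lay among the V segments (chr7:38330597-38367702), with cluster means of 57.8, 50.4 and 68.9 in SMG 1 to 3 and 50.1, 63.8 and 62.7 in NG 1 to 3. A pair of clusters on chromosome X, at CXorf49 and CXorf49B, had mean ranks of 35.4 and 38.4. Those genes are near-identical copies, so the pair is not independent.

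Strength varied widely within clusters. Mean ranks of the 498 members ran from 4.40 to 99.9 with quartiles of 25.5, 47.3 and 72.8, and 79.3% of their variance lay within clusters. Groups this small hold most of the variance even when formed at random. The share therefore does not show that members of a cluster differ more than members of separate clusters. The range between the strongest and the weakest member of a cluster had a median of 64.6 points (9.64 to 89.9). By mean rank, a member at or above the 90th percentile was found in 27 clusters and a member at or below the 10th in 13, with both in 2. Members at gene ends had a median of 55.5 and those away from them 43.3, against 64.1 and 39.8 in other constant regions. By class, the median cluster rank was 49.6 at gene ends, 58.5 with no protein-coding gene and 43.7 within genes.

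Ranked by q-value, members and other constant regions differed by less than the spread between libraries. The median rank of members was 48.3, 49.4 and 52.2 in SMG 1 to 3 and 48.4, 50.1 and 47.9 in NG 1 to 3, against 50.0 to 50.1 for other constant regions. The difference, members minus others, was −0.637 ± 1.63 points (SD, n = 6 libraries) and was negative in 4 of 6 libraries (exact sign-flip test, two-sided, p = 0.4375, where the smallest possible is 0.03125). This p does not show that they are equal. In stretches of 4 or more regions the difference was −1.56 points (same exact test, p = 0.03125). It was 4.69 points, with the sign turned, where a library's peaks had to cover at least 50% of a region (same exact test, p = 0.03125). The q-value also depends on the local background of a peak, described below, so these comparisons are not independent of the rule. The libraries share a cell line and the same regions, so each p covers measurement only and no conclusion is drawn from it.

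Ranked by fold enrichment, the height of a peak over its local background, the members stood far lower. Their median fold rank was 26.1, 27.2 and 27.1 in SMG 1 to 3 and 30.5, 24.8 and 27 in NG 1 to 3, against 50.4 to 50.5 for other constant regions. The difference was −23.3 ± 1.93 points (SD, n = 6 libraries) and was negative in 6 of 6. By stretch size the median fold rank was 53.2 for single regions, 41.0 for stretches of 2, 36.2 for 3, 34.5 for 4 and 27.2 for clusters. By class it was 33.1 at gene ends, 18.7 with no protein-coding gene and 27.9 within genes.

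The pieces of that ratio were recovered from the deposited fold and −log10 p-values. Summit height had a median of 36, 41 and 40 fragments over members in SMG 1 to 3 and 26, 42.5 and 35 in NG 1 to 3. Over other constant regions it was 28, 32 and 29 in SMG 1 to 3 and 21, 33 and 28 in NG 1 to 3. Members thus had the higher summits in 6 of 6 libraries. Local background had a median of 5.64, 6.06 and 6.32 fragments over members in SMG 1 to 3 and 3.88, 6.18 and 5.09 in NG 1 to 3. Over other constant regions it was 3.22, 3.56 and 3.36 in SMG 1 to 3 and 2.30, 3.6 and 2.96 in NG 1 to 3. Members had a background 1.69 to 1.88 times that of the others in 6 of 6 libraries. MACS2 takes this background from fragments in windows around a peak, which include neighbouring peaks, so it is not independent of the rule and no test is given.

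**Figure D3:**
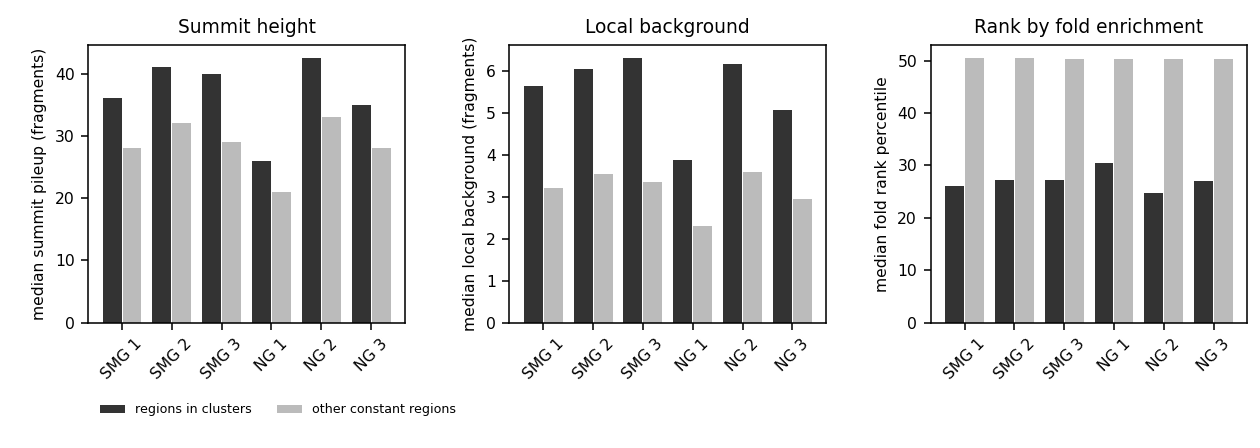
Medians over the 498 members (black) and over other constant regions (grey) in each library, SMG left of NG, for summit height in fragments, local background in fragments and rank percentile by fold enrichment. Summits and backgrounds of members are higher in all 6 libraries and their fold ranks, 24.8 to 30.5, are lower.

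Width and summit place were close between the sets. Member regions had a median width of 824 bp, against 870 bp for other constant regions. The summits of the strongest peak in the 6 libraries spread over 174.5 bp at the median in members, against 178 bp in other constant regions.

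Depth differed between libraries. The lists held 42222, 42399 and 39624 peaks in SMG 1 to 3 and 37782, 43713 and 40601 in NG 1 to 3. The lowest recovered background was 1.59, 1.73 and 1.59 fragments in SMG 1 to 3 and 1.17, 1.77 and 1.42 in NG 1 to 3. NG 1 was the shallowest by both, and peak names of SMG 3 carry the word "normalized", which those of the other 5 lists do not. What it means, and whether that list was made differently, is not given in the labels, and its part in the results where SMG 3 stands apart was not tested.

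Simulated microgravity and normal gravity were compared over the libraries, to ask whether these shared stretches of open chromatin differed in strength, width or filling. The median rank of members was 49.9 ± 2.03 in SMG and 48.8 ± 1.15 in NG (SD, n = 3 each), a difference of 1.14 points in an exact permutation test over 10 splits (two-sided, p = 0.6). With gene-end regions left out before stitching the difference was 3.94 points (same exact test, p = 0.1, the smallest it allows), and for peaks with a −log10 q of 5 or more it was −2.38 (same exact test, p = 0.2). Member peaks were 623.5 ± 22.2 bp wide in SMG and 592 ± 65.6 bp wide in NG at the median (n = 3 each, same exact test, p = 0.6). Members at or above the 90th percentile of a library made up 9.50 ± 1.11% in SMG and 8.90 ± 0.232% in NG (n = 3 each, same exact test, p = 0.4). Those at or below the 10th made up 9.24 ± 0.348% in SMG and 10.8 ± 1.22% in NG (n = 3 each, same exact test, p = 0.2). These were 4 of 8 such tests, all with a Benjamini-Hochberg adjusted p of 0.8. With 3 libraries against 3 the exact test cannot go below 0.1, so none could pass 0.05.

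Single regions gave no call either. Fitted with limma over all 23303 constant regions, with Benjamini-Hochberg adjustment, 0 regions passed an adjusted p of 0.05 in either direction (0% higher and 0% lower in SMG), and the smallest adjusted p was 0.870. At an unadjusted limma p under 0.05, 12 members were higher in SMG (2.41%), against 2.71% of all regions, and 16 were lower (3.21%), against 2.81%. All 3 SMG ranks lay above all 3 NG ranks in 19 members (3.82%), against 5.37% of all constant regions, and below them in 26 (5.22%), against 5.76%. These shares were near the background.

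The member with the smallest limma p, chr14:105480887-105481372, lay at an end of CRIP2, which codes for a LIM domain protein. It ranked at 0.976, 5.37 and 3.09 in SMG 1 to 3, against 55.6, 33.5 and 46.1 in NG 1 to 3. Every SMG library was below every NG library, with a difference in normal scores of −1.81 (SE 0.272, limma adjusted p = 0.870). Its neighbour, chr14:105481534-105482420, ranked at 39.9, 16.7 and 17.4 in SMG 1 to 3, against 18.7, 16.6 and 54.3 in NG 1 to 3, and there the groups overlapped. Next in the lower direction came a region at chr5:181161113-181161712, in a cluster that overlaps 8 transfer RNA genes. It ranked at 3.89, 0.551 and 1.20 in SMG 1 to 3, against 20.4, 11.2 and 37.6 in NG 1 to 3 (limma adjusted p = 0.870). The region at an end of LRRC23, chr12:6904415-6905203, ranked at 28, 43.1 and 34 in SMG 1 to 3, against 65.0, 83.1 and 59.0 in NG 1 to 3. Between RPL18, a protein of the large ribosomal subunit, and SPHK2, a sphingosine kinase, chr19:48618850-48619667 ranked at 43.3, 39.7 and 31.5 in SMG 1 to 3, against 68.7, 63.2 and 69.1 in NG 1 to 3. The last of the 5, chr1:16929420-16929911 in the CROCC cluster, ranked at 14.8, 16.2 and 6.21 in SMG 1 to 3, against 44.3, 24.0 and 33.3 in NG 1 to 3. The groups did not overlap in any of these 5, which were chosen by their p, and none passed the adjusted threshold.

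In the higher direction, chr7:102404267-102405074 inside PRKRIP1 ranked at 23.3, 31.3 and 35.8 in SMG 1 to 3, against 7.93, 2.77 and 6.75 in NG 1 to 3 (limma adjusted p = 0.870). A weak member of the ribosomal RNA cluster, chr21:8414390-8415377, ranked at 36.9, 27.9 and 19.7 in SMG 1 to 3, against 2.11, 14.7 and 5.23 in NG 1 to 3. At an end of DUSP28, which codes for a dual-specificity phosphatase, chr2:240565483-240566988 ranked at 66.2, 50.1 and 71.4 in SMG 1 to 3, against 31.2, 30.4 and 37.1 in NG 1 to 3. These 3 members had no overlap between groups. At S100P, which codes for a calcium-binding protein, chr4:6696189-6696918 ranked at 16.6, 18.8 and 3.24 in SMG 1 to 3, against 0.315, 4.77 and 0.0279 in NG 1 to 3. In the cluster of CHI3L2 and DENND2D, chr1:111229488-111230122 ranked at 12.7, 34.6 and 49.1 in SMG 1 to 3, against 14.8, 4.30 and 0.903 in NG 1 to 3. In both of those the groups overlapped.

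Whole clusters were then compared by the mean rank of their regions. In 4 of the 83 (4.82%) all SMG means lay above all NG means, against 5.22% of all 18713 stretches, and in 4 (4.82%) all lay below, against 5.77%. The widest gap among these was in the cluster of SPHK2, CA11 and DBP. Its mean rank was 55.3, 54.6 and 63.8 in SMG 1 to 3, against 70.4, 71.5 and 66.2 in NG 1 to 3, a difference of −11.4. Its members at RPL18 and SPHK2, at CA11 and at NTN5 had differences of −28.8, −20.0 and −16.9. Groups did not overlap at the first 2 of these, and at NTN5 they did. The member with the DBP start printed above ranked at 81.3, 87.6 and 91.6 in SMG 1 to 3 and at 80.2, 91.4 and 87.6 in NG 1 to 3. One cluster thus held members that were lower in every SMG library and members whose groups overlapped.

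The cluster of NAA40, COX8A and OTUB1 had a mean rank of 41.9, 40.4 and 40.3 in SMG 1 to 3, against 48.0, 49.4 and 51.8 in NG 1 to 3. NAA40 codes for an acetyltransferase of histone tails, COX8A for a subunit of cytochrome c oxidase and OTUB1 for a deubiquitinase. The cluster of RASSF1, HYAL2 and TMEM115 had a mean rank of 59.6, 58.6 and 53.0 in SMG 1 to 3, against 61.8, 63.2 and 66.8 in NG 1 to 3. The fourth, an LDLRAD4 cluster of 5 members, had a difference of −4.58.

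The cluster of RNPEPL1, DUSP28 and ANKMY1 was higher in SMG, with a mean rank of 62.9, 61.3 and 59.3 in SMG 1 to 3, against 47.4, 57.1 and 57.3 in NG 1 to 3. NR4A1 and TAMALIN had a mean of 44.3, 40.9 and 47.2 in SMG 1 to 3, against 34.7, 40.6 and 37.4 in NG 1 to 3. CCM2, a scaffold of the endothelial junction pathway, and MYO1G, a myosin of blood cells, had a mean of 72.8, 75.8 and 74.7 in SMG 1 to 3, against 67.7, 71.0 and 67.0 in NG 1 to 3. SMCO4 was the fourth, with a difference of 2.68. The member at an end of NR4A1, chr12:52023133-52024219, ranked at 51.8, 58.4 and 67.5 in SMG 1 to 3 and at 32.8, 53.7 and 20.4 in NG 1 to 3, where the groups overlapped. With 3 libraries a group no cluster could pass 0.05 in an exact permutation test, so these are counts and values with no call. ARHGEF7 and CDYL, chosen after their values were seen, had differences of 11.6 and 11.7, wider than any in these 4, and their groups overlapped.

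**Figure D4:**
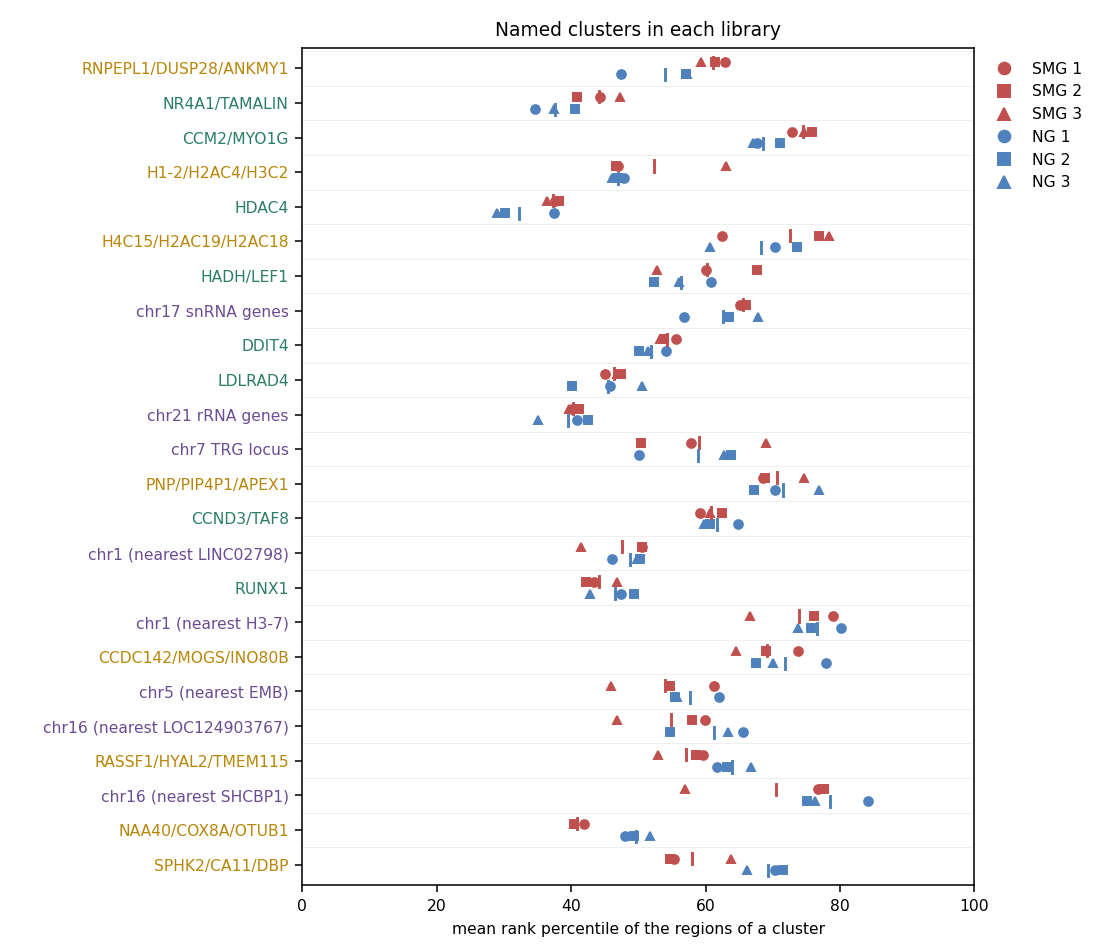
Mean rank percentile of the regions of 24 named clusters in each library, red for SMG and blue for NG, with vertical bars for group means, ordered by the difference between groups and with names coloured by class (gold at gene ends, green within genes, purple with no protein-coding gene). RNPEPL1/DUSP28/ANKMY1 is at the top with a difference of 7.24 and SPHK2/CA11/DBP at the bottom with −11.4.

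By class, gene-end clusters had a median member rank of 50.2 ± 6.62 in SMG and 54.8 ± 0.942 in NG (SD, n = 3 each). It was 46.3 in SMG 1 and 46.4 in SMG 2, against 57.8 in SMG 3, so the SMG libraries differed more among themselves than the groups did. Clusters within genes, whose regions need not all lie inside a gene, had 42.5 ± 1.52 in SMG and 39.7 ± 2.16 in NG. Clusters with no protein-coding gene had 62.4 ± 3.65 in SMG and 63.8 ± 1.07 in NG. The classes were drawn after the values were seen, so no test is given.

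**Figure D5:**
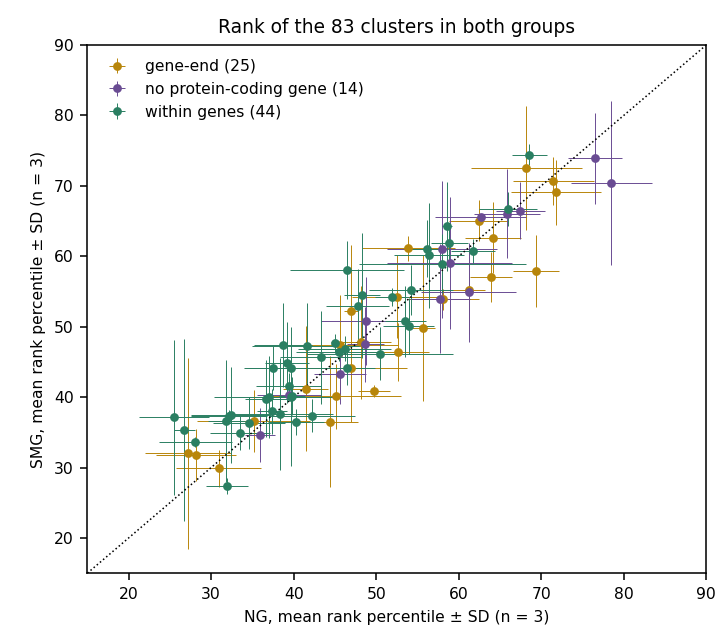
Mean rank percentile of each of the 83 clusters in SMG (vertical axis) and NG (horizontal axis), with bars for 1 SD over 3 libraries and colour for class. Points follow the dotted line of equal rank, and 4 clusters on each side of it have groups that do not overlap.

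Further peaks, outside the constant regions, lay between the members of clusters in 131 places. Libraries held 55, 57 and 59 of them in SMG 1 to 3 and 34, 68 and 51 in NG 1 to 3. That is 19.6 ± 0.688 per Mb of cluster span in SMG and 17.5 ± 5.85 per Mb in NG (SD, n = 3 each, exact permutation test, p = 0.7, adjusted p = 0.8). The lowest count was in NG 1, the shallowest library, and the part of depth in it was not tested. All 3 SMG libraries and no NG library held 4 of the places, and all 3 NG libraries and no SMG library held 1. These are 3.05% and 0.763% of the 131 places, against 0.611% and 0.408% of the 43848 non-constant regions of the same chromosomes, and counts this small were not tested. Of the 23 places that 5 libraries held, 9 were missing in SMG 3 and 7 in NG 1.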

How the data were processed

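Each library's deposited peak list, in the narrowPeak layout of MACS2, was used. The submitters' processing notes name BWA, Bowtie, SAMtools, FastQC and MACS2, with hg38 as the build. No version or setting of theirs is given in the sources used here. For each peak the authors deposited a score, a fold enrichment (a linear ratio of summit to local background), a −log10 p-value, a −log10 q-value and a summit offset. Peaks were called per library, per the peak names in the deposited lists. The lists hold no read counts, so summit and background heights were recovered from fold and −log10 p-value with MACS2's formulas, within 0.001 of the deposited −log10 p-value for over 99.9% of constant regions. The true depth is unknown.

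Peaks were merged and stitched with Python 3.11.15, numpy 2.4.6 and pandas 2.3.3. Exact permutation and sign-flip tests were two-sided. limma 3.58.1 (R 4.3.3) was fitted to normal scores of the ranks over all 23303 constant regions and was tested on simulated data, where it recovered few of the small shifts and more of the large ones, so 0 calls do not show that small shifts are absent. Adjusted p-values are Benjamini-Hochberg values. Gene positions (19974 protein-coding genes) and sequences came from RefSeq, GRCh38.p14, whose chromosome coordinates are those of hg38.

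The rule for naming took the 12 clusters with most regions, the 6 of highest mean rank, clusters that overlap T cell list genes, and the 3 with the largest group difference each way among those whose groups do not overlap. It also took the 5 members of smallest limma p each way and at most 6 promoters. Members, lists and rules were chosen with earlier results of these data known. Alternatives changed the gap, the cluster size, the peak threshold, the overlap, the ranked value, the libraries, the gene-end regions and window, and the replicate block.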

Additional observations from a re-analysis of the deposited data

How the results depend on the processing

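The member count depended on the rule. It was 36 regions in 6 clusters with gaps of up to 5 kb, 1566 in 259 with 20 kb, 1094 in 232 for 4 or more regions and 268 in 37 for 6 or more. It was 180 in 31 for peaks with a −log10 q of 5 or more, 111 in 17 where peaks cover 50% of the region and 229 in 35 with gene-end regions left out. Leaving out 1 library gave 519 to 716 regions in 87 to 121 clusters, most without NG 1.

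The SMG minus NG difference in member rank changed sign for 6 or more regions (−0.675), for a −log10 q of 5 or more (−2.38), for 50% cover (−0.171) and when ranked by fold (−0.660). It kept its sign at 6.07 with 5 kb gaps, 3.94 with gene-end regions left out (exact permutation test, p = 0.1, the smallest it allows), 0.270 with 20 kb gaps, 0.332 for 4 or more regions and 0.839 without clusters far from protein-coding genes. Leaving out 1 library gave −0.400 (without NG 3) to 1.90. With the replicate number as a block it was 1.14 (exact sign-flip test, p = 1). Same-numbered libraries deviated with correlations of −0.0252 to 0.00597, and libraries of unlike number with −0.0180 to 0.0306. Values this near to each other do not show whether libraries were prepared in numbered pairs. limma called 0 regions with the block (625 higher and 601 lower in SMG at an unadjusted p under 0.05) and 0 under every other alternative run.

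Members minus other constant regions was −1.56 for 4 or more regions, 4.69 for 50% cover, −23.3 by fold rank, and −3.20 to 1.53 without 1 library (positive without NG 3). By fold rank, leaving out 1 library gave −23.9 to −21.1, where the exact test over 5 libraries allows no p below 0.0625. The gene-end share of members was 33.3% with a 2 kb window, against 38.5% of other constant regions. With gene starts only it was 24.9%, against 31.6%. It was 0% with 5 kb gaps, 22.4% for 6 or more regions and 35.6% for a −log10 q of 5 or more. Without clusters far from protein-coding genes it was 33.5%, and it is 0 by construction with gene-end regions left out. The share of other constant regions under these last settings, from 5 kb gaps on, is not given here.

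Clusters higher in SMG without overlap numbered 0 of 6 with 5 kb gaps, 12 of 259 with 20 kb and 12 of 232 for 4 or more regions. They numbered 2 of 37 for 6 or more and 1 of 31 for a −log10 q of 5 or more. By fold they numbered 1 of 83, for 50% cover 3 of 17 and without gene-end regions 2 of 35. Without 1 library, which gave 87 to 121 clusters, they numbered 10 to 19, where 2 libraries against 3 overlap less easily. Those lower in SMG numbered 0 of 6 with 5 kb gaps, 15 of 259 with 20 kb and 15 of 232 for 4 or more regions. They numbered 3 of 37 for 6 or more regions and 2 of 31 for a −log10 q of 5 or more. By fold they numbered 6 of 83, for 50% cover 1 of 17 and without gene-end regions 1 of 35. Without 1 library they numbered 4 to 9. The share over all stretches under these settings is not given here, so these counts have no background beside them. Further peaks per Mb, SMG minus NG, differed by −3.25 with 5 kb gaps and by −0.515 (without NG 1) to 5.28 without 1 library. The median difference of the named clusters was −0.327, and −3.07 with 5 kb gaps, −2.81 for a −log10 q of 5 or more, 1.21 for 50% cover, 1.61 without clusters far from protein-coding genes and −0.686 to 0.505 without 1 library. The cause of these changes was not tested. The number of libraries and the unknown depth limit what could be seen in weak regions.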
